A study of Mus musculus with 6 samples.

Results

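The imprinted genes of the mouse, together with Nctc1, a long noncoding RNA gene next to H19, were followed in freshly isolated muscle stem cells (MuSCs, which regenerate skeletal muscle) with and without Taf4a, a subunit of the general transcription factor TFIID. Members were taken by gene symbol from a list of 41 genes, of which 38 had a row among the 22081 genes measured and 36 had a mean of at least 5 and were tested. Magel2, Phlda2 and Rasgrf1 had no row and were not analysed here. Kcnq1 (8, 5 and 4 normalized counts in control, 4, 2 and 1 in Taf4asKO) and Slc22a18 (3, 1 and 9 against 4, 3 and 3) fell below the mean of 5. The data were RNA-seq libraries from 90000 sorted cells each, 3 labelled MuSC_WT (control here) and 3 labelled MuSC_Taf4a-KO (Taf4asKO here), on a C57BL/6 background. Taf4asKO mice carried Taf4a with exons 11 and 12 flanked by loxP sites on both alleles and the tamoxifen-inducible Pax7CreERT allele, active in Pax7-expressing cells, and received tamoxifen at 8 to 20 weeks of age. The study describes its controls as littermates that shared the floxed Taf4a alleles and either lacked or carried the Cre allele. It also lists wild-type C57BL/6 mice among those used. Which of these alternatives the 3 control libraries came from was not given, so the effects of Cre, of tamoxifen and of the loss of Taf4a cannot be told apart here. The study used males and females, and the sex behind each library was not given. Cells came from limb and trunk muscle and were depleted of SCA1+, CD45+ and CD31+ cells. They were then sorted for integrin alpha 7 or by a Pax7 reporter. SCA1, CD45 and CD31 mark fibro-adipogenic, immune and endothelial cells. The study reanalysed sorted cells and reported an incomplete purity, and the purity of these libraries was not analysed here. Nothing ties the libraries to single animals, so p-values measure the spread between libraries.

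Genomic imprinting silences 1 of the 2 parental copies of a gene, by DNA methylation laid down in the germ line at imprinting control regions and kept through later divisions. Imprinted genes lie in clusters in which a noncoding RNA and its protein-coding neighbours are often expressed from opposite parental copies. Many act in growth, H19 and Igf2 are high in embryonic muscle and fall after birth, and several clusters are known to be active in adult stem cells. The RNA measured here was summed over both parental copies, so the copy it came from cannot be told. In RNA from a bulk sample, fewer cells of a type and less RNA per cell cannot be told apart.

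Values are normalized counts, that is, reads per gene scaled by the authors for library depth and rounded to whole numbers. Libraries held 12338676 to 14551732 normalized counts, and the 38 listed genes took 0.489% to 0.713% of them. MuSC markers were present in every library: Pax7 had 12082, 12244 and 13007 normalized counts in the controls against 10669, 10363 and 11164 in Taf4asKO. The 12 MuSC markers summed to 60615 to 63312 in control and 58250 to 64718 in Taf4asKO, with 4 lower past the threshold given in the next paragraph (Myf5, Itga7, Cdh15 and Fgfr4, against 6.71% of all genes) and 3 higher (Vcam1, Sdc4 and Msc, against 5.93%). Of these calls, that of Itga7 held only without control replicate 3 (adjusted p of up to 0.165), that of Cdh15 was lost without any of the Taf4asKO libraries (up to 0.0934) and that of Msc without Taf4asKO replicate 2 or 3 (up to 0.0581). Of markers of other cells, the immune genes Ptprc, Adgre1, C1qa, C1qb and Cd3e had no row, while the summed level of 10 Schwann cell markers was 7392 to 11232 in control and 12419 to 13947 in Taf4asKO, without overlap, with 7 of the 10 higher and 1 lower past the threshold. The part of these other cells in the results was not tested beyond fits, given further on, with a Schwann or fibro-adipogenic covariate. Each covariate was the mean, over the markers of its list, of the log2 of normalized counts plus 1. Summed fibro-adipogenic markers were 73485 to 118082 in control and 68705 to 103561 in Taf4asKO, and tenocyte markers 2223, 6583 and 15470 against 7942, 17973 and 16195, higher in each same-numbered pair. Endothelial markers summed to 996 to 1567 against 1686 to 2370, and the 5 immune markers with a row to 481 to 590 against 697 to 944. Although this immune sum was higher, 4 of the 5 had negative log2 fold changes (median of the 5 -0.56). Cd74 alone of them passed the threshold, lower (-2.20), a call lost with the Schwann covariate (limma adjusted p = 0.218). Pericyte and smooth muscle markers gave 26420 to 31376 against 27531 to 32454, and myofibre markers 2296 to 6327 against 2852 to 3487. Without pairing, limma called 0 of 8 tenocyte markers (1 at an unadjusted p under 0.05), 0 of 10 endothelial markers (8 at an unadjusted p under 0.05), 2 of 10 pericyte and smooth muscle markers, both higher, and 4 of 12 fibro-adipogenic markers, 3 lower and 1 higher. In a fit that paired libraries by number, 6 of 8 tenocyte, 5 of 10 endothelial and 6 of 10 pericyte and smooth muscle markers were called, all higher, as were 8 of 12 fibro-adipogenic markers, with 3 lower, where 9.09% of all genes were higher and 8.98% lower. Taf4 itself, counted over the whole gene, had 613, 534 and 478 normalized counts in the controls against 631, 565 and 574 in Taf4asKO, a count that does not check a deletion of exons 11 and 12.

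A gene was called past the threshold at an adjusted p under 0.05 in limma, with Benjamini-Hochberg adjustment over all 18562 genes tested, and a change of at least 1.3-fold. Fold changes are log2 differences of normalized counts plus 1, Taf4asKO minus control. Of the 36 listed genes tested, 14 passed, 6 lower and 8 higher, against 12.6% of all genes tested (6.71% lower and 5.93% higher). The median log2 fold change of the 36 was -0.01, beside 0.00 over all genes tested. The groups did not overlap for 24 of the 36, 12 lower and 12 higher, against 33.0% of all genes (16.4% lower and 16.6% higher). In a fit that blocked on replicate number, 12 were lower and 9 higher, against 18.1% of all genes tested, and the 14 were among those 21. Of all genes, 8.98% were lower and 9.09% higher in that fit. At a limit of 2-fold, 6 of the 36 passed (1 lower and 5 higher) against 4.58% of all genes (2.8% and 1.78%), and at an adjusted p under 0.01 it was 7 (2 lower and 5 higher) against 4.72% (2.94% and 1.78%). With the Schwann covariate, an alternative chosen after seeing the data, 8 passed (2 lower and 6 higher) against 5.12% (3.34% and 1.78%). Lost with it were Kcnq1ot1 (adjusted p = 0.116), Rian (0.677), Asb4 (0.327), Mest (0.218), Zrsr1 (0.0570), Impact (0.0999) and Gnas (0.475), and Airn was gained. With the fibro-adipogenic covariate Asb4 (0.0510) and Mest (0.0641) were lost and Copg2 (0.0494) was gained. With a library left out, the count was 9 without control replicate 1 (9.24% of all genes), 21 without control replicate 2 (16.6%), 14 without control replicate 3 (11.7%), and 7 without Taf4asKO replicate 1, 2 or 3 (6.72%, 5.25% and 5.14%). By locus, the genes past the threshold were H19, Igf2 and Nctc1 at the Igf2-H19 locus, Peg10 and Asb4 at Peg10-Sgce, and a single gene at each of Kcnq1, Dlk1-Dio3, Mest, Plagl1, Zrsr1, Impact, Gnas, Slc38a4 and Peg13. None passed at Nap1l5, Peg3, Snrpn, Inpp5f, Grb10, Igf2r or Nnat.

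**Figure D1:**
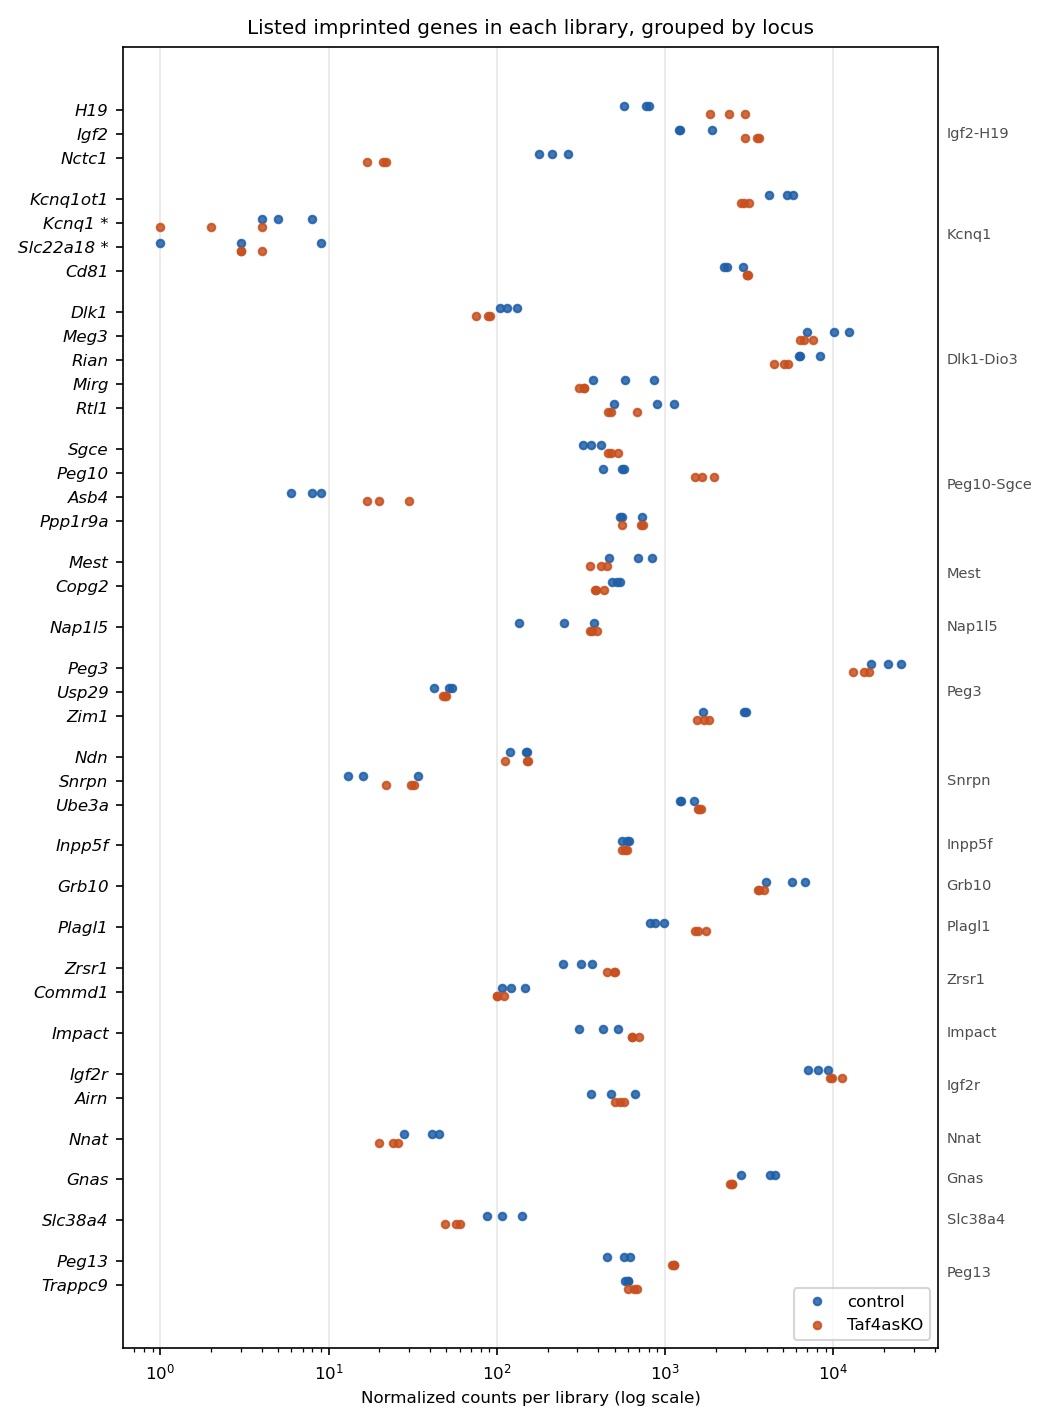
Normalized counts (log axis) of the 38 listed genes with a row in each of the 3 control (blue) and 3 Taf4asKO (orange) libraries, 1 point per library, grouped by locus. Nctc1 sat at 177 to 266 in control and 17 to 22 in Taf4asKO, while H19, Igf2, Peg10 and Peg13 lay above their control points in every Taf4asKO library. Genes marked with a star were below the mean of 5.

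The sequences below show what is embedded in or next to the members on which the results turn. H19, Igf2 and Mest each host 1 microRNA hairpin, and the mature sequences, with the seed (bases 2 to 8) in capitals, are given 5′ to 3′ from RefSeq on GRCm38.p6. The H19 pair lies on chromosome 7 minus strand at 142577078 to 142577133, the Igf2 pair on chromosome 7 minus strand at 142654932 to 142654989, and the Mest pair on chromosome 6 plus strand at 30741314 to 30741375.
miR-675-5p (in H19): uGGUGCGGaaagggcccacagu
miR-675-3p (in H19): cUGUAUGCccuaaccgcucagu
miR-483-5p (in Igf2): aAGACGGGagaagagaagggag
miR-483-3p (in Igf2): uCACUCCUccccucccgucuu
miR-335-5p (in Mest): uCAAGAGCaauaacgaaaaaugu
miR-335-3p (in Mest): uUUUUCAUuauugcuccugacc
No 2 of these 6 shared a seed. Mature microRNAs were not measured in these libraries. Reads over the Mir335 hairpin numbered 8, 6 and 3 in control and 0, 4 and 4 in Taf4asKO, below the mean of 5.

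Rtl1 carries the complements of 6 hairpins, which are transcribed from the opposite strand, and Mirg holds 14. These are shown because both genes lie in the Dlk1-Dio3 cluster described further on. Among 26 mature sequences inside Mirg, a single pair shared a seed, miR-453 (chromosome 12 plus strand, 109735669 to 109735692) and miR-496a-5p (109739132 to 109739152). The seeds are in capitals.
miR-127-3p (opposite Rtl1, chromosome 12, 109592888 to 109592909): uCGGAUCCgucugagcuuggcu
miR-136-5p (opposite Rtl1, chromosome 12, 109595331 to 109595352): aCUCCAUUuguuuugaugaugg
miR-453 (in Mirg): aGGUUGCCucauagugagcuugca
miR-496a-5p (in Mirg): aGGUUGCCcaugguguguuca

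The Igf2-H19 locus held Nctc1, which fell the most of the 36, and H19, which with Peg10 rose the most. Igf2 is a fetal growth factor, usually expressed from the paternal copy, and H19 a noncoding RNA, usually expressed from the maternal copy. Both draw on enhancers downstream of H19, which a control region bound by CTCF keeps from Igf2 on the maternal copy. Nctc1 is a long noncoding RNA transcribed across the muscle enhancer region downstream of H19.

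H19 (ENSMUSG00000000031, mm10 chromosome 7, 142575558 to 142578120, minus strand) showed 805, 771 and 570 normalized counts in the controls against 2974, 1835 and 2393 in Taf4asKO. Every Taf4asKO library was above every control library. Group means were 715 ± 127 and 2401 ± 570 (SD, n = 3), a log2 difference of 1.73 (SE 0.18, limma adjusted p = 0.000499). Igf2 (ENSMUSG00000048583, chromosome 7, 142650766 to 142666816, minus strand) showed 1233, 1894 and 1206 in control and 3533, 2983 and 3610 in Taf4asKO. The Igf2 groups did not overlap either, with control replicate 2 the highest control. The Igf2 means were 1444 ± 390 and 3375 ± 342 (SD, n = 3), a log2 difference of 1.25 (SE 0.17, limma adjusted p = 0.00153).

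Nctc1 (ENSMUSG00000087090, chromosome 7, 142544609 to 142558596, minus strand) moved the other way, with 213, 177 and 266 normalized counts in the controls against 17, 22 and 21 in Taf4asKO. The highest Taf4asKO library was far below the lowest control library. Group means were 219 ± 45 and 20 ± 2.6 (SD, n = 3), a log2 difference of -3.37 (SE 0.22, limma adjusted p = 5.77e-05). H19, Igf2 and Nctc1 passed the threshold with each of the 6 libraries left out in turn, with adjusted p-values of at most 0.0039, 0.0125 and 0.00076.

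Within a library, Igf2 stood at 1.53, 2.46 and 2.12 times the count of H19 in control and at 1.19, 1.63 and 1.51 times in Taf4asKO, so the ranges of this ratio overlapped. H19 stood at 3.78, 4.36 and 2.14 times the count of Nctc1 in control and at 174.9, 83.4 and 114.0 times in Taf4asKO, ranges far apart. Both ratios compare counts without regard to gene length. Igf2 overlaps the antisense gene Igf2os in 98 bases of exon, and Igf2os itself had 7, 8 and 4 normalized counts in the controls against 11, 8 and 6 in Taf4asKO. In GENCODE M21, Igf2 also shares 3596 of 5723 exonic bases with the read-through gene Gm49394, and reads lying over more than 1 gene were left out of the counting, so its level may rest on part of its exons where the authors' annotation held that gene.

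Around H19, genes that rose and genes that fell lay next to each other. Of 21 genes lying at least in part within 500 kb of H19, 18 were tested and 5 passed (27.8%, against 12.6% of all genes, and 2 of 14 or 14.3% without the listed genes), H19 and Igf2 higher and Nctc1, Mrpl23 and Gm33148 lower. Gm33148, a noncoding RNA gene between H19 and Igf2 (142591744 to 142620804, plus strand), had 14, 15 and 27 normalized counts in the controls against 3, 1 and 3 in Taf4asKO (log2 fold change -2.57, SE 0.48, limma adjusted p = 0.0080), and it passed with each library left out but not with the Schwann covariate (-2.59, adjusted p = 0.0973). Its start lies 13.6 kb from the H19 start on the Igf2 side, and the Nctc1 start 19.5 kb on the other side. Mrpl23, a mitochondrial ribosomal protein gene whose start lies 45.1 kb from that of H19, had 82, 63 and 69 against 46, 38 and 37 (log2 fold change -0.81, adjusted p = 0.0395). The groups did not overlap for Mrpl23, but its call was lost without any 1 of the libraries except control replicate 2, with an adjusted p of up to 0.150, and with the Schwann covariate its change was -0.47 (adjusted p = 0.449). The other 13 tested genes ranged from -0.91 for Ifitm10 to 0.66 for R74862, and none of them passed.

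**Figure D2:**
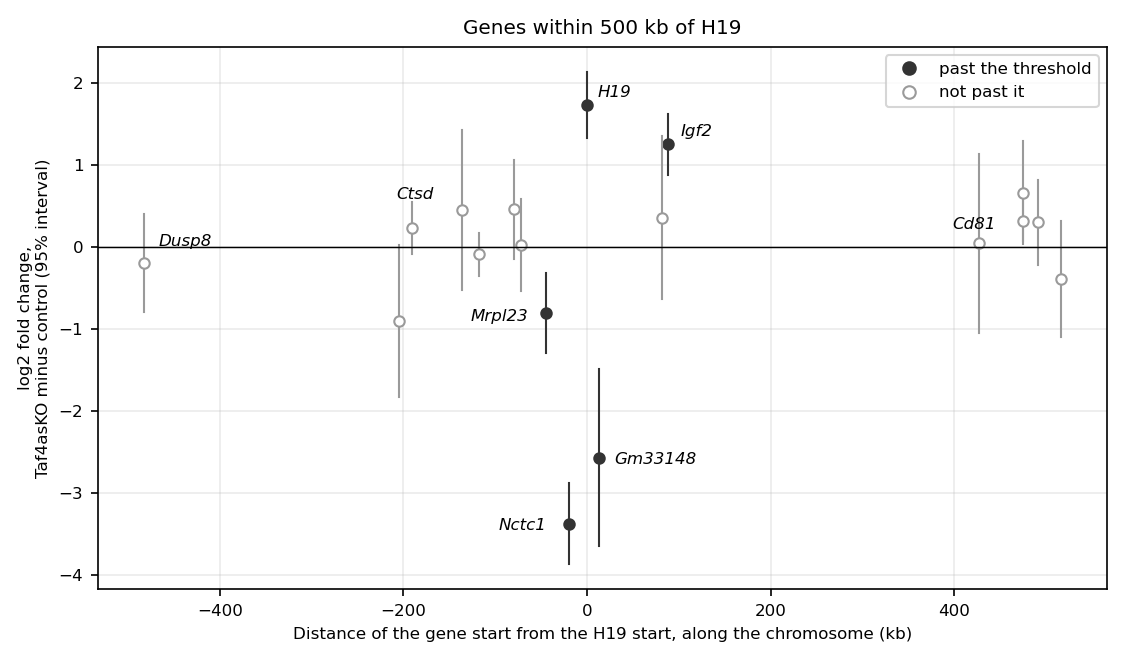
Log2 fold change (Taf4asKO minus control, points) with its 95% interval (bars) for the 18 tested genes lying at least in part within 500 kb of H19, against the distance of each gene's start from the H19 start in kb, along the chromosome. H19 at 1.73 and Igf2 at 1.25 stand above 0, with Gm33148 at -2.57 between them and Nctc1 at -3.37 on the other side of H19.

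The upstream sequences of Nctc1 and Kcnq1ot1 are shown because these noncoding RNAs of chromosome 7 both fell and because the study followed NF-Y, which reads CCAAT. Each is the 250 bases before the start in RefSeq (GRCm38.p6, minus strand, 5′ to 3′), chr7:142558599-142558848 for Nctc1 and chr7:143296548-143296797 for Kcnq1ot1, with the letters CCAAT in capitals.
Nctc1: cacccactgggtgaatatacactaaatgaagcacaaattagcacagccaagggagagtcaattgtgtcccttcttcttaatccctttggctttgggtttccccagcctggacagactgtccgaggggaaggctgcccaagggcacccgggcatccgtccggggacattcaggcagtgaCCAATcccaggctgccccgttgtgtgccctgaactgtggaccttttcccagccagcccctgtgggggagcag
Kcnq1ot1: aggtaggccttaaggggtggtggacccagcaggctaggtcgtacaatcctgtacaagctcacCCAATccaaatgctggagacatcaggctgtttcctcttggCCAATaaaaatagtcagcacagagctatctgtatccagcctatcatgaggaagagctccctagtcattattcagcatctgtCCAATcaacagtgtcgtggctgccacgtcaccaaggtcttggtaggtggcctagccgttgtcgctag
CCAAT began 72 bases before the start of Nctc1, and 188, 148 and 67 bases before that of Kcnq1ot1. Searched on both strands (CCAAT or ATTGG) in windows of 300 bases, it was in 32.0% of 50 windows of 33 listed genes and in 37.4% of all 32817 promoter windows. GGGCGG or CCGCCC, letters read by Sp1, was in 54.0% and 35.6%, and TATAAA or TTTATA in 24.0% and 13.6%. Among the genes past the threshold, CCAAT or ATTGG was also in a window of risen Igf2 and Asb4 and of fallen Gnas and Slc38a4. It was in no window of risen Plagl1 and Zrsr1 or of fallen Mest and Rian. Windows of 1 gene can overlap, as can TATAAA and TTTATA, and a match of letters is not a binding site.

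At the Kcnq1 locus, Kcnq1ot1 is a noncoding RNA of the paternal copy that silences neighbours such as Cdkn1c in cis. Kcnq1ot1 (ENSMUSG00000101609, chromosome 7, 143212155 to 143296549, minus strand) showed 5747, 5281 and 4120 normalized counts in the controls against 3149, 2834 and 2940 in Taf4asKO. All Taf4asKO libraries were below all control libraries. It fell by 0.75 on the log2 scale (SE 0.13, limma adjusted p = 0.00459), and passed with each library left out, but not with the Schwann covariate (-0.55, adjusted p = 0.116). It overlaps exons of Kcnq1 on the opposite strand. Cd81, a tetraspanin at the edge of the cluster, had 2235, 2891 and 2330 against 3076, 3090 and 3073 (log2 fold change 0.32, adjusted p = 0.0856) and passed only without control replicate 2 (adjusted p = 0.00843).

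Cdkn1c, a cell cycle inhibitor of the maternal copy that is not among the 41 but lies in this interval, had 2297, 6177 and 1284 normalized counts in the controls against 1101, 879 and 564 in Taf4asKO. The groups did not overlap, but control replicate 2 stood far above the other controls. Its log2 fold change was -1.69 (SE 0.46, limma adjusted p = 0.0390), and the call held only without control replicate 2, where the change was -1.07, or replicate 3, where it was -2.20 (adjusted p of up to 0.143 without another library, and 0.107 with the Schwann covariate). Kcnq1ot1 and Cdkn1c were thus both lower, and the remaining tested genes of the interval beside Cd81, Tssc4 (0.30) and Trpm5 (-0.40), did not pass.

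The Dlk1-Dio3 cluster holds paternal protein-coding genes, Dlk1 (a transmembrane protein of the Notch ligand family) and Rtl1 (derived from a retrotransposon), and maternal noncoding RNAs, Meg3, the snoRNA host Rian and the microRNA host Mirg. All 5 had negative log2 fold changes, from -0.83 to -0.46, but with the Schwann covariate these were -0.20 for Dlk1, -0.13 for Rian, -0.02 for Mirg, 0.09 for Meg3 and 0.28 for Rtl1, and none passed. Rian (ENSMUSG00000097451, chromosome 12, plus strand, 109603940 to 109661716) was the member that passed, with 8311, 6264 and 6291 normalized counts in the controls against 5404, 5080 and 4426 in Taf4asKO. Control and Taf4asKO were separate, and Rian fell by 0.48 on the log2 scale (SE 0.13, limma adjusted p = 0.0394). The Rian call was lost without control replicate 1 (adjusted p = 0.104) and with Taf4asKO replicate 1, 2 or 3 left out (0.0659, 0.120 and 0.166).

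Meg3 had 12450, 6990 and 10140 normalized counts in the controls against 7570, 6657 and 6301 in Taf4asKO (log2 fold change -0.49, adjusted p = 0.107, and 0.0184 with the replicate block). Mirg had 860, 372 and 580 against 328, 307 and 328 (-0.83, adjusted p = 0.0501, and 0.00734 with the block), and Rtl1 1121, 497 and 888 against 680, 477 and 457 (-0.58, adjusted p = 0.181, and 0.0211 with the block). In these 3 genes control replicate 2 was the lowest control, near the Taf4asKO libraries, and without it all 3 passed (adjusted p of 0.00739, 0.00412 and 0.0143). Dlk1, with 131, 105 and 115 against 88, 75 and 91, did not overlap between groups but did not pass (-0.46, adjusted p = 0.118, and 0.0911 with the block).

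The interval from Dlk1 to the last listed gene held 57 genes of the table, 34 of them microRNA hairpins and 14 snoRNA genes, and 37 were tested. Of the 37, 36 had a negative log2 fold change, with a median of -0.71 beside 0.00 over all genes, but 2 passed (5.41%, against 12.6% of all genes), Rian and the hairpin Mir654. Mir654 had 15, 7 and 9 normalized counts in the controls against 1, 0 and 3 in Taf4asKO (log2 fold change -2.44, adjusted p = 0.0290), and lost its call without control replicate 3 or Taf4asKO replicate 1 or 2 (adjusted p of up to 0.0974). With the replicate block, 10 of the 37 passed, all lower, where 8.98% of all genes were lower. With the Schwann covariate 18 of the 37 were negative and 19 positive, with a median of 0.09, and limma called 0 of them (3 at an unadjusted p under 0.05). The hairpins and snoRNA genes lie in or beside the long host transcripts, so reads of 1 transcript can be spread over many of these rows, and they are not independent. The exception in sign was the snoRNA gene Gm23600 (0.14).

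**Figure D3:**
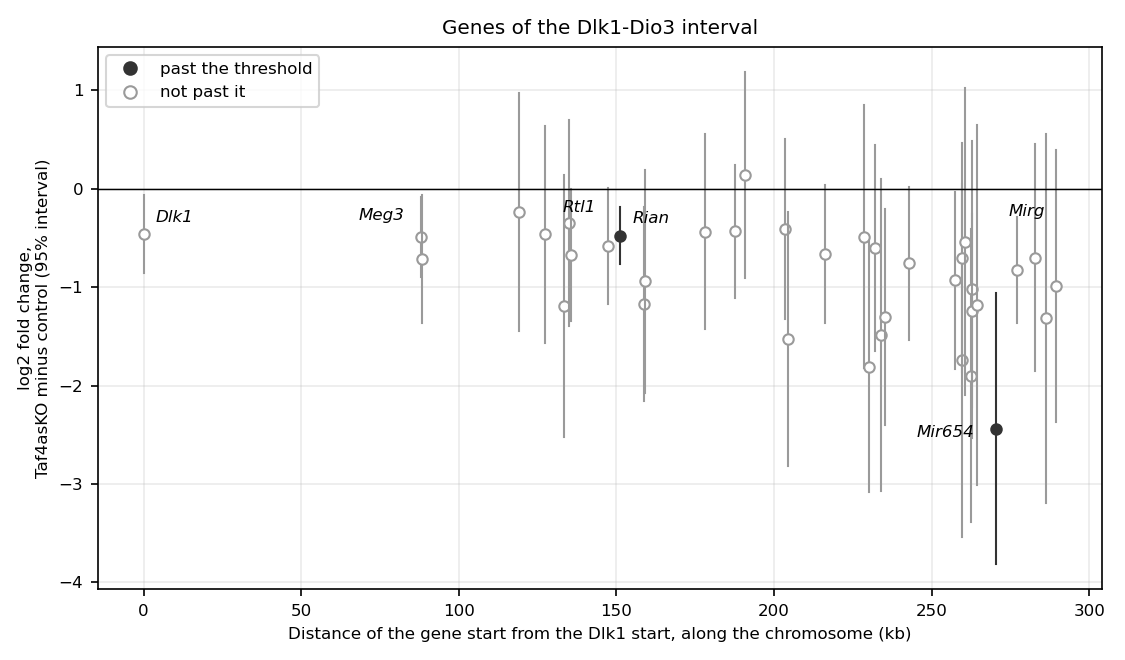
Log2 fold change (Taf4asKO minus control, points) with its 95% interval (bars) for the 37 tested genes of the Dlk1-Dio3 interval, against the distance of each gene's start from the Dlk1 start in kb. All points but 1 lie below 0, which was not so with the Schwann covariate (18 below and 19 above), and Rian (-0.48) and Mir654 (-2.44) are the filled points past the threshold.

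At Peg10-Sgce, all 4 listed genes had positive log2 fold changes, and Peg10 and Asb4 passed the threshold. The log2 fold changes of Sgce and Ppp1r9a were 0.14 and -0.22 with the Schwann covariate. Peg10 (ENSMUSG00000092035, chromosome 6, 4747306 to 4760517, plus strand), derived from a retrotransposon and expressed from the paternal copy, had 566, 428 and 554 normalized counts in the controls against 1952, 1511 and 1664 in Taf4asKO. Every Taf4asKO value was more than 2 times the highest control value. The rise of 1.73 on the log2 scale (SE 0.14, limma adjusted p = 0.000111) passed with each library left out. Sgce, the paternal epsilon-sarcoglycan gene that starts next to Peg10 on the opposite strand, had 325, 417 and 364 against 474, 521 and 458 (0.40, adjusted p = 0.0651). Its groups did not overlap, and it passed with the replicate block (adjusted p = 0.0295) and without control replicate 2 (0.0201).

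Asb4, an ankyrin repeat protein with a SOCS box, was low, with 6, 8 and 9 normalized counts in the controls against 20, 17 and 30 in Taf4asKO. The groups did not overlap (log2 fold change 1.41, SE 0.37, limma adjusted p = 0.0345), and the call held without control replicate 2 (adjusted p = 0.0391) but was lost without any of the other 5 libraries (0.0505 to 0.168). Ppp1r9a, which encodes the actin-binding neurabin, had 542, 730 and 555 against 551, 740 and 723 (0.14, adjusted p = 0.592). Of the 6 other genes in the interval, Pon2, a paraoxonase also listed as imprinted, was higher (245, 324 and 269 against 510, 533 and 523, log2 fold change 0.91, adjusted p = 0.00211, and 0.0636 with the Schwann covariate), and none of the other 5 passed.

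Peg13 lies within an intron of Trappc9 on the same strand. Peg13 (ENSMUSG00000106847, chromosome 15, 72805600 to 72810324, minus strand), a paternal noncoding RNA, had 566, 448 and 616 normalized counts in the controls against 1100, 1131 and 1135 in Taf4asKO. The Taf4asKO libraries lay close together, above all controls, and the rise of 1.06 (SE 0.13, limma adjusted p = 0.000922) passed with each library left out. Trappc9, a trafficking complex subunit, had 576, 605 and 604 against 600, 680 and 649 (0.11, 95% interval -0.12 to 0.34, adjusted p = 0.517). The ratio of Peg13 to Trappc9 was 0.983, 0.741 and 1.02 in control and 1.83, 1.66 and 1.75 in Taf4asKO.

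Zrsr1 lies likewise within Commd1, on the opposite strand, and their exons share 412 bases. Zrsr1 (ENSMUSG00000044068, chromosome 11, 22973215 to 22976496, plus strand), a paternal relative of a splicing factor, had 318, 246 and 365 normalized counts in the controls against 500, 450 and 498 in Taf4asKO. It was higher in all Taf4asKO libraries (log2 fold change 0.66, SE 0.15, limma adjusted p = 0.0197), but did not pass without Taf4asKO replicate 1, 2 or 3 (0.0763, 0.0631 and 0.0881). Commd1 had 122, 146 and 107 against 110, 100 and 100 (-0.26, 95% interval -0.65 to 0.13, adjusted p = 0.355).

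Plagl1 is a zinc finger transcription factor known to act on other imprinted genes, H19 and Igf2 among them. Plagl1 (ENSMUSG00000019817, chromosome 10, 13090788 to 13131694, plus strand) had 978, 816 and 875 normalized counts in the controls against 1749, 1500 and 1556 in Taf4asKO. No library overlapped, and the rise of 0.85 (SE 0.11, limma adjusted p = 0.00119) passed with each library left out. Impact, which restrains the amino acid sensor Gcn2, had 428, 307 and 523 against 632, 703 and 634 (ENSMUSG00000024423, log2 fold change 0.68, SE 0.17, limma adjusted p = 0.0309). It was higher in all Taf4asKO libraries, and its call was lost without control replicate 1 (0.0516) or Taf4asKO replicate 1, 2 or 3 (0.0847, 0.128 and 0.0928).

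Mest, a paternal gene of the hydrolase fold family, and its neighbour Copg2, a subunit of the COPI vesicle coat, run toward each other and share 912 exonic bases on opposite strands. Mest (ENSMUSG00000051855, chromosome 6, 30733506 to 30748465, plus strand) had 691, 840 and 466 normalized counts in the controls against 417, 448 and 357 in Taf4asKO. The groups were separate by a narrow margin between control replicate 3 and Taf4asKO replicate 2. Mest fell by 0.67 on the log2 scale (SE 0.19, limma adjusted p = 0.0483, and 0.00322 with the block), and its call held only without control replicate 3 (adjusted p = 0.00623, against 0.0898 to 0.173 without each of the others). It also lost the call by a narrow margin under other scaling, pseudocount and weighting settings (adjusted p of 0.0513 to 0.0553). Copg2 had 480, 541 and 517 against 386, 430 and 381 (-0.36, adjusted p = 0.0591), lower in all Taf4asKO libraries but not past the threshold.

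Gnas encodes the stimulatory G protein alpha subunit and, from other promoters, further imprinted transcripts, which a count per gene sums. Gnas (ENSMUSG00000027523, chromosome 2, 174284320 to 174346744, plus strand) had 4194, 2804 and 4484 normalized counts in the controls against 2429, 2489 and 2489 in Taf4asKO. Both groups stayed separate, although control replicate 2 lay near the Taf4asKO libraries (log2 fold change -0.60, SE 0.16, limma adjusted p = 0.0321). Without control replicate 2 the adjusted p was 0.00097, and without each of the other libraries it was 0.0877 to 0.109. Gnas overlaps Nespas and Gm20721 on the opposite strand in 2457 exonic bases. Nespas had 15, 27 and 21 against 16, 4 and 8 and did not pass.

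Slc38a4 (ENSMUSG00000022464, chromosome 15, 96994823 to 97055956, minus strand), a paternal amino acid transporter gene, had 87, 140 and 107 normalized counts in the controls against 60, 57 and 49 in Taf4asKO. It was lower in all Taf4asKO libraries (log2 fold change -0.97, SE 0.22, limma adjusted p = 0.0185), and its call was lost without Taf4asKO replicate 1, 2 or 3 (0.0515, 0.0689 and 0.0872).

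**Figure D4:**
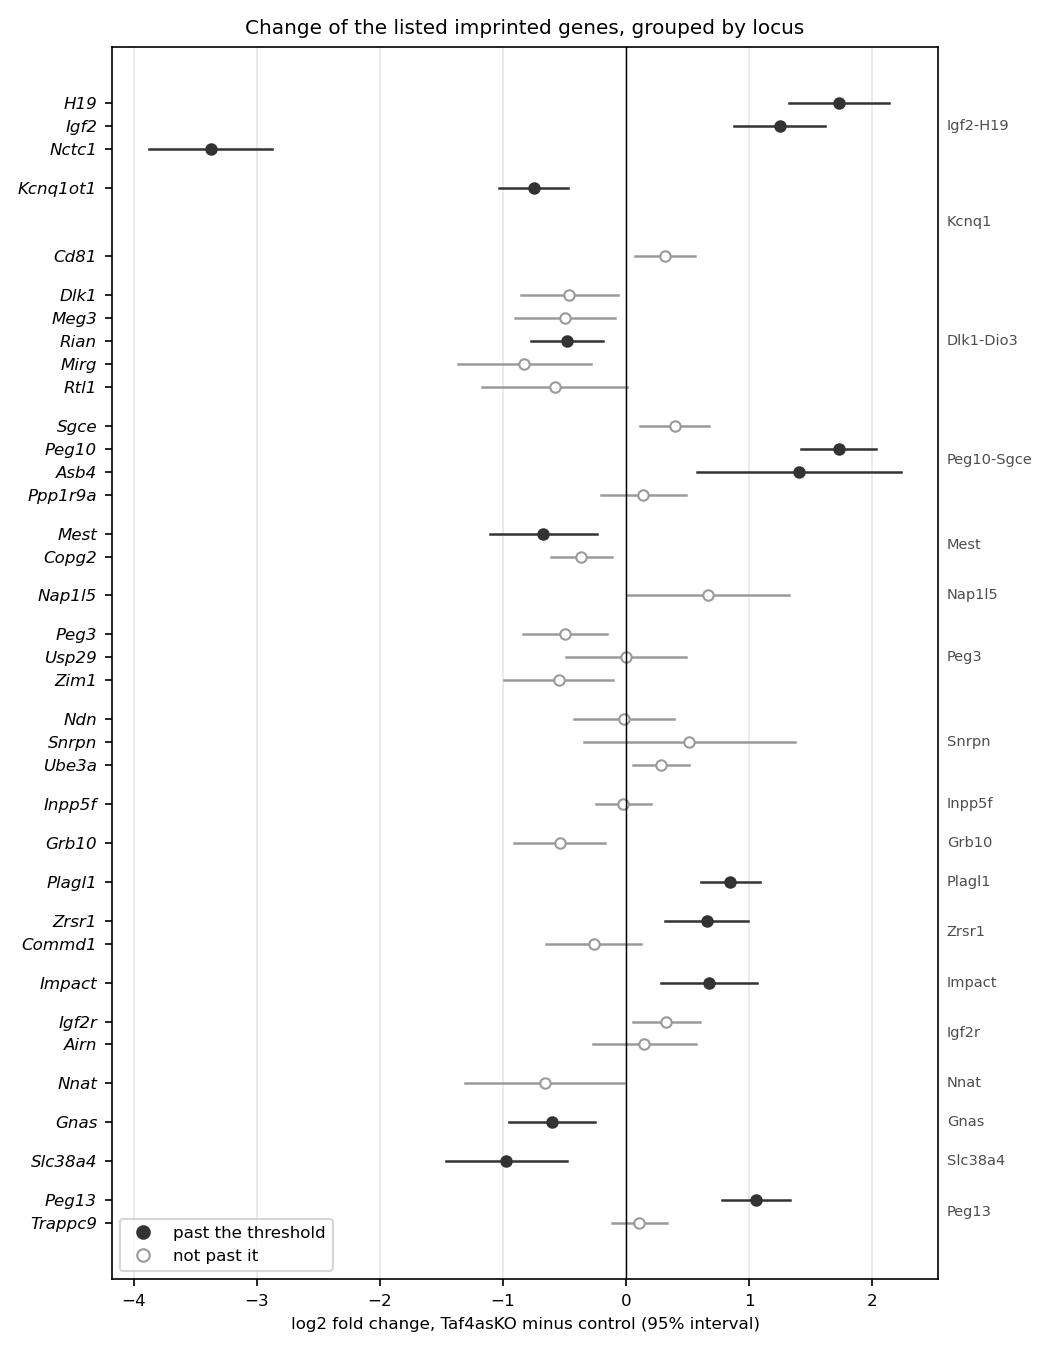
Log2 fold change (Taf4asKO minus control, points) of the 36 tested genes with the 95% interval from limma (bars), grouped by locus. Filled points are the 14 genes past the threshold, from Nctc1 at -3.37 to H19 and Peg10 at 1.73, and neighbours within a locus differ in sign at Igf2-H19, Kcnq1, Snrpn and Zrsr1.

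Peg3 was the most abundant of the listed genes. This paternal zinc finger gene had 25307, 16784 and 21156 normalized counts in the controls against 16196, 15214 and 13107 in Taf4asKO (log2 fold change -0.49, adjusted p = 0.0618). Taf4asKO lay below control throughout, and Peg3 passed with the replicate block (0.0148) and without control replicate 2 (0.0123), while its change was -0.07 with the Schwann covariate. Its maternal neighbour Zim1, another zinc finger gene, had 3041, 1676 and 2924 against 1693, 1825 and 1546 (-0.55, adjusted p = 0.10, and 0.0411 with the block, 0.00177 without control replicate 2), but -0.07 with the Schwann covariate. Usp29, a ubiquitin protease gene that shares a promoter region with Peg3, had 52, 54 and 42 against 48, 50 and 49 (0.00, 95% interval -0.49 to 0.49).

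Grb10 is an adaptor that dampens signalling from the insulin and IGF1 receptors. It had 5646, 6811 and 3984 normalized counts in the controls against 3886, 3585 and 3596 in Taf4asKO, without overlap (log2 fold change -0.54, adjusted p = 0.0608, and 0.0134 with the block). Without control replicate 3, the lowest control, it passed (0.00539). Igf2r, the maternal receptor that takes up IGF2 for degradation, had 8077, 9336 and 7015 against 11194, 9578 and 9763 (0.33, adjusted p = 0.109). The groups did not overlap for Igf2r, which passed without control replicate 2 (0.0280). The ratio of Igf2r to Igf2 counts was 6.55, 4.93 and 5.82 in control and 3.17, 3.21 and 2.70 in Taf4asKO. Airn, the paternal antisense RNA that silences Igf2r, had 658, 363 and 474 against 573, 503 and 537 (0.15, adjusted p = 0.645), and with the Schwann covariate it passed (0.77, adjusted p = 0.0283).

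At the Snrpn locus, Ube3a, a ubiquitin ligase gene, had 1235, 1474 and 1223 normalized counts in the controls against 1556, 1588 and 1626 in Taf4asKO. Taf4asKO was above control in each library, and the change was under 1.3-fold (log2 fold change 0.28, adjusted p = 0.0977). Ndn, the gene of the MAGE protein necdin, overlapped between groups (119, 150 and 148 against 111, 150 and 153, 95% interval of the log2 fold change -0.42 to 0.39). Snrpn, a core splicing protein gene, was low, at 13 to 34 against 22 to 32 (0.51, adjusted p = 0.415). In annotation Snrpn shares 805 exonic bases with Snurf and Gm38393 on the same strand, so its count may miss reads.

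Of the remaining listed genes, Nap1l5, of the nucleosome assembly protein family, had 249, 135 and 379 against 365, 395 and 356 (0.67, adjusted p = 0.167), and passed without control replicate 3 (0.0255). Nnat, the gene of neuronatin, was at 28 to 45 against 20 to 26 (-0.66, adjusted p = 0.163). Inpp5f, an inositol phosphatase gene, was at 557 to 611 against 555 to 597 (-0.02, 95% interval -0.25 to 0.20).

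Grouped by the copy usually expressed, 20 paternal genes were tested, of which 3 were lower and 6 higher past the threshold (45% called, against 12.6% of all genes), with a median log2 fold change of 0.07. Of 15 maternal genes tested, 2 were lower and 2 higher (26.7%), with a median of -0.26. With the replicate block 5 paternal genes were lower and 7 higher, and 6 maternal genes were lower and 2 higher (against 8.98% of all genes lower and 9.09% higher). The usual copy was taken from general knowledge, varies between tissues for some genes, and was not assigned for Nctc1. The difference between both sets was not tested.

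Per kilobase of exon, taken as the union of exons in GENCODE M21, control levels were highest for Peg3 (1582 normalized counts per kb), Igf2r (875), Cd81 (863), Grb10 (603) and Meg3 (545). H19 came 9th at 291 per kb (232 to 327 over libraries), followed by Igf2 at 252 per kb (211 to 331), and the ranges of these neighbours overlapped. In Taf4asKO, Peg3 (1114 per kb), Igf2r (1094), Cd81 (1070) and H19 (976, from 746 to 1209) came first with overlapping ranges, followed by Igf2 at 590 per kb (521 to 631). The spread among replicates was wider in control. The median coefficient of variation of the 36 genes was 18.6% in control and 8.21% in Taf4asKO, beside 19.3% and 13.01% over all genes tested, and 31 of the 36 varied more in control. Control replicate 2 was the lowest of the controls in 18 of the 36 and the highest in 15.

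The IGF pathway list gives the genes around Igf2, its receptors, binding proteins and adaptors. Of 24 listed, 20 were tested and 4 passed, 2 lower and 2 higher (20% called, against 12.6% of all genes), with a median log2 fold change of 0.36. The ligand Igf1 had 1620, 2970 and 1388 normalized counts in the controls against 325, 742 and 498 in Taf4asKO, and fell by 1.93 on the log2 scale (SE 0.31, adjusted p = 0.0041), opposite to Igf2. The binding protein genes went both ways. Igfbp3 fell from 267, 400 and 214 to 133, 153 and 98 (-1.17, adjusted p = 0.0121, and 0.0571 without Taf4asKO replicate 3). Igfbp5 rose from 8200, 8361 and 12202 to 20823, 29497 and 38059 (1.601, adjusted p = 0.00173), and Igfbp7 from 686, 965 and 1160 to 1349, 1569 and 1638 (0.72, adjusted p = 0.0229), a call lost without Taf4asKO replicate 2 or 3 (0.0952 and 0.0971) and with the Schwann covariate (0.24, adjusted p = 0.540). The receptors Igf1r and Insr, chosen after their values were seen, did not pass (both 0.24). With the replicate block 6 of the 20 passed, against 18.1% of all genes, and without control replicate 2 it was 8, against 16.6%.

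Factors that keep imprints, DNA methyltransferases, their partners and KRAB zinc finger cofactors among them, were listed under 32 names, of which 27 had a row and were tested (Np95 is an older name of Uhrf1). Of these, 7 were lower and 1 higher (29.6% called, against 6.71% of all genes lower and 5.93% higher), with a median log2 fold change of -0.10. Uhrf1, which guides Dnmt1 to newly copied DNA, fell by 1.37 on the log2 scale (110, 172 and 75 against 52, 46 and 33, adjusted p = 0.0176), and the chromatin remodeller Hells by 1.08 (161, 177 and 115 against 83, 62 and 66, adjusted p = 0.0099). Dnmt1, the maintenance methyltransferase, fell by 0.50 (879, 1055 and 800 against 558, 692 and 684, adjusted p = 0.0367), Dnmt3a by 0.49 (adjusted p = 0.0177) and Trim28, the corepressor of KRAB zinc finger proteins, by 0.58 (adjusted p = 0.0124). Tet1, which oxidizes methylated cytosine, fell by 0.68 (adjusted p = 0.0039) and Mbd3 by 0.48 (adjusted p = 0.0188), while Arid4b rose by 0.53 (adjusted p = 0.00422). Ctcf was level at 0.01. Tet1 and Arid4b passed with each library left out. Without Taf4asKO replicate 2, or without replicate 3, the list held 2 calls. With the Schwann covariate Arid4b alone kept its call (0.60, adjusted p = 0.0328), and the adjusted p of the others was 0.0552 for Tet1 to 0.332 for Dnmt3a. In that fit the log2 fold change was -1.55 for Uhrf1, -0.96 for Hells, -0.70 for Dnmt1, -0.67 for Tet1, -0.55 for Mbd3, -0.48 for Trim28 and -0.29 for Dnmt3a. Uhrf1, Hells and Dnmt1 act around DNA replication, and proliferation genes were lower as well, Mki67 by 2.15 (adjusted p = 0.00602) and Top2a by 1.72 (adjusted p = 0.0121), both highest in control replicate 2. The part of proliferation in the levels of the listed genes was not tested.

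The differentiation genes Mymk, needed for myoblast fusion, and Myog, a late myogenic factor, fell by 2.86 (adjusted p = 0.0035) and 1.98 (adjusted p = 0.0188). Ccnd1 fell by 0.63 (adjusted p = 0.0156), Cdkn1a rose by 1.54 (adjusted p = 0.00553), and the Notch targets Hes1 and Heyl rose by 0.95 (adjusted p = 0.0039) and 0.57 (adjusted p = 0.0224). Together with Cdkn1c, 6 of the 12 activation and differentiation genes were lower and 3 higher (against 6.71% and 5.93% of all genes). With the Schwann covariate Myog (-2.08, adjusted p = 0.131), Hes1 (0.64, adjusted p = 0.114), Heyl (0.41, adjusted p = 0.287) and Cdkn1c (-2.20, adjusted p = 0.107) lost the call. Myog, Top2a and Ccnd1 each lost the call without 2 of the Taf4asKO libraries, and Heyl without any library but control replicate 2 (adjusted p of up to 0.0858).

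A list of further imprinted genes held 54 names (Eif2c2 is an older name of Ago2), of which 38 were tested, 5 lower and 4 higher past the threshold (23.7% called, against 12.6% of all genes, median log2 fold change 0.04). Lower were Cdkn1c, Ampd3, an AMP deaminase gene (1773, 1885 and 2095 against 545, 659 and 699, -1.599, adjusted p = 8.23e-05), the actin regulator Cobl next to Grb10 (1648, 1278 and 1584 against 580, 630 and 539, -1.36, adjusted p = 0.000175), Peg12 (216, 261 and 174 against 100, 117 and 110, -0.97, adjusted p = 0.0071) and the MuSC cadherin Cdh15, named after its values were seen to complete the count. Higher were Tfpi2 (26, 12 and 12 against 109, 48 and 56, 2.02, adjusted p = 0.00986), Xist (7, 5 and 8 against 22, 27 and 38, 1.95, adjusted p = 0.00795), Smoc1 (112, 114 and 167 against 243, 295 and 298, 1.10, adjusted p = 0.0045) and Pon2. None of the groups overlapped in these genes. The Tfpi2 call was lost without Taf4asKO replicate 1 (0.0507), the Xist call without replicate 3 (0.0578) and the Cdh15 call without any of the 3 Taf4asKO libraries (up to 0.0934). With the Schwann covariate Cdkn1c (-2.20, adjusted p = 0.107), Smoc1 (0.90, adjusted p = 0.0979), Xist (2.05, adjusted p = 0.0783) and Pon2 (0.64, adjusted p = 0.0636) lost theirs. Xist was low in all libraries, and their sex make-up was not given.

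**Figure D5:**
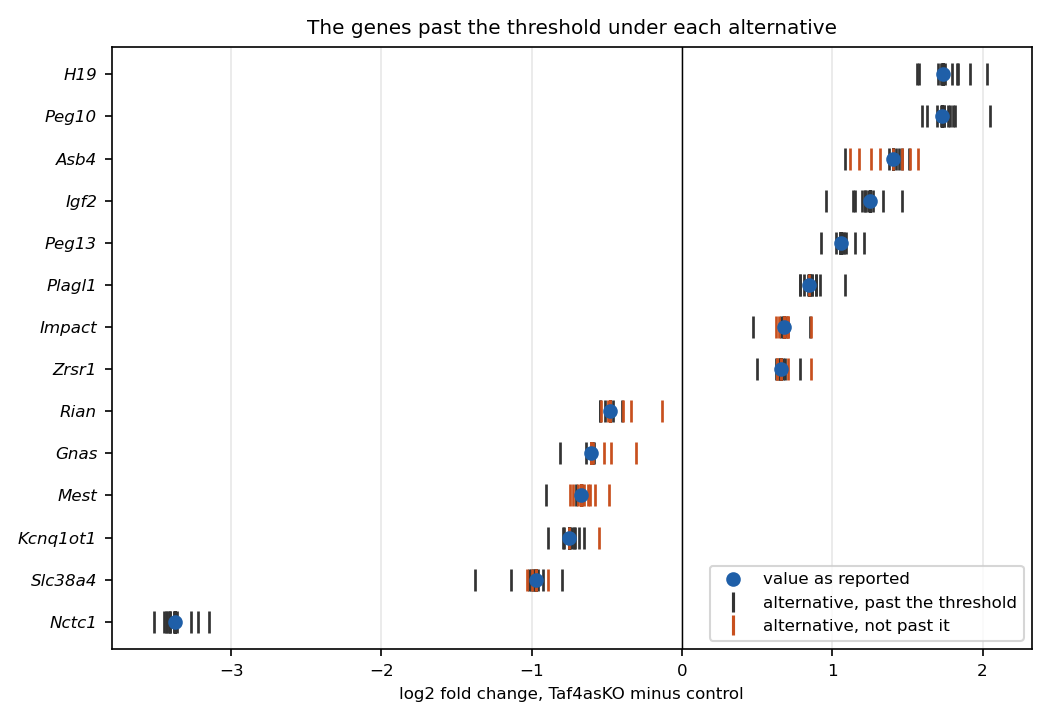
Log2 fold change (Taf4asKO minus control) of the 14 genes past the threshold as reported (blue points) and under each alternative processing (ticks, orange where the gene no longer passed). H19, Igf2, Nctc1, Peg10 and Peg13 passed under all 20 alternatives, and no tick crosses 0.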

How the data were processed

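Total RNA of 90000 sorted MuSCs per library was made into stranded libraries from 10 ng of input and read in single reads of 75 bases. The deposited values, of unit score, are gene counts that the authors normalized with DESeq2 and rounded, so they are not raw counts and give no counting error. Per the labels and the study's methods, the authors used Trimmomatic 0.39, STAR 2.6.0c, featureCounts 1.6.0 and DESeq2 1.14.1 with mm10 and Ensembl release 101, removed multi-mapping reads and left out reads over several genes. Whether counting used strand is not given in the sources used here, and 17 of the 38 listed genes overlap exons on the opposite strand, which without strand cannot be told apart.

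Groups were taken from the labels. log2(value + 1) of genes with a mean of at least 5 was fitted in limma 3.58.1 (R 4.3.3) with an intensity trend, two-sided, on all 6 libraries. The call limits of adjusted p and fold follow the study's methods. On simulated data with known changes, the fit was tested before use. Same-numbered control and Taf4asKO libraries deviated together (r of 0.235, 0.126 and 0.150 across genes), so the numbers were taken as pairs and a fit with the number as a block was run as well. The pairing comes from the replicate numbers in the labels alone. Alternatives were other scalings, filters, pseudocounts, weights, limits, covariates and each library left out. Members and lists were chosen with earlier results of these data known. Exon lengths, overlaps and introns came from GENCODE M21, in which 22042 of the 22081 genes were found, 16684 at the same position. Sequences came from RefSeq (GRCm38.p6). All listed genes were named, with the values of every library for most, and of the other lists those past the threshold, at most 8 a list. The ratios and single neighbours described were chosen after values were seen.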

Additional observations from a re-analysis of the deposited data

How the results depend on the processing

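Of 719 fold changes of listed genes recomputed under 20 alternatives, 615 kept their direction and side of the threshold, 61 lost the call, 27 gained it and 16 changed sign. H19, Igf2, Nctc1, Peg10 and Peg13 passed under all 20. At a limit of 2-fold, 6 listed genes passed (1 lower, 5 higher) and 2 imprint maintenance genes. At an adjusted p under 0.01, 7 passed (2 lower, 5 higher), with 2 IGF pathway and 3 maintenance genes. With the Schwann covariate, chosen after seeing the data and itself different between the groups, 8 passed (2 lower), with 5 of the further imprinted genes and 1 maintenance gene. With a library left out, the listed genes gave 7 (each Taf4asKO replicate) to 21 calls (control replicate 2), 2 to 10 lower and 5 to 11 higher, the IGF pathway 2 to 8, maintenance 2 to 9 and the further imprinted genes 6 to 12. Under total scaling Rian (adjusted p = 0.0922), Impact (0.0622) and Gnas (0.0801) lost the call, as did Impact under upper-quartile scaling (0.0534), and Mest under trimmed-mean scaling (0.0553), a pseudocount of 0.1 (0.0537), voom weights (0.0546) and robust eBayes (0.0513). Calls were gained by Mirg under trimmed-mean scaling (0.0497), no filter (0.0438) and a pseudocount of 5 (0.0461), by Sgce under total scaling (0.037), by Grb10 (0.0412) and Copg2 (0.03) under upper-quartile scaling, by Peg3 under voom weights (0.0468) and robust eBayes (0.0475), by Copg2 with the fibro-adipogenic covariate (0.0494) and by Airn with the Schwann covariate (0.0283). The cause of these differences was not tested.

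With the replicate number as a block, 12 listed genes were lower. The block added Meg3, Mirg, Rtl1, Sgce, Peg3, Zim1 and Grb10 and changed no other call of a listed gene.

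Signs changed in genes that did not pass. With the Schwann covariate the log2 fold change was 0.0874 for Meg3, 0.2841 for Rtl1, -0.2176 for Ppp1r9a, 0.0135 for Usp29 and 0.0077 for Inpp5f. Usp29 was 0.0154 with trimmed-mean scaling, 0.0259 with the fibro-adipogenic covariate and -0.111 to 0.0666 with a library left out. Likewise Ndn ranged from -0.1246 to 0.1311, Inpp5f from -0.0587 to 0.0079 and Airn from -0.0567 to 0.3714. The read depth of each library before normalization was not given in the sources used here, so no counting interval can be given for low genes such as Asb4.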
